A study of Mus musculus with 24 samples.

Results

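The genes described here are the polyamine synthesis and antizyme genes Odc1, Oaz1, Oaz2, Azin1, Amd1, Sat1, Srm and Sms, 8 of the 23337 gene symbols listed. They were chosen by symbol, as genes of the pathway known for translational control, and all 8 were found. They were measured in bone-marrow-derived macrophages by ribosome profiling, which sequences the mRNA fragments that translating ribosomes protect (ribosome-protected fragments, called footprints below), and by sequencing of total RNA from the same cultures. The tested cells came from Apobec1-/- (KO) mice and the control cells from wild-type (WT) mice, both of strain C57BL/6J and 6 to 12 weeks old, littermates or age-matched. All cultures were grown from femoral marrow for 7 days in 20 ng/mL of M-CSF, which turns marrow precursors into macrophages, and no other agent was named. The 6 KO and the 6 WT cultures each gave 1 footprint and 1 total RNA library (24 libraries), in 3 batches. Batch 3 held KO5, KO6, WT5 and WT6, batch 2 held KO2, KO3, KO4 and WT4, and batch 1 held KO1, WT1, WT2 and WT3. The labels do not say that each culture came from its own mouse, so p-values measure only how far these cultures differ, in part perhaps for technical reasons. The study asked how functional APOBEC1, a cytidine deaminase that edits RNA, affects translation.

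Polyamines (putrescine, spermidine and spermine) are small positively charged molecules that bind RNA and are needed for growth, and cells hold their level within narrow limits by feedback. Ornithine decarboxylase (ODC1) makes putrescine from ornithine and is the rate-limiting enzyme. S-adenosylmethionine decarboxylase (AMD1) makes the aminopropyl donor with which spermidine synthase (SRM) and spermine synthase (SMS) lengthen the chain, and spermidine/spermine N1-acetyltransferase (SAT1) acetylates the products for export or breakdown. The antizymes OAZ1 and OAZ2 bind ODC1 and send it to the proteasome without ubiquitin, and they are made only when ribosomes shift reading frame on their mRNA, which polyamines favour. Antizyme inhibitor 1 (AZIN1), an inactive relative of ODC1, binds antizymes in its place. In mammals the mRNAs of ODC1, AMD1, AZIN1 and SAT1 are textbook examples of translation that falls or rises with polyamines, and in macrophages the pathway is known for its part in alternative activation.

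Counts in genes ran from 29561 to 3714912 in footprint libraries and from 5077478 to 12059361 in total RNA libraries. Footprint libraries were shallow, with 8 of 12 under 1000000 and the 4 of batch 3 between 29561 and 223504. Levels are CPM, counts scaled to the size of the library with TMM factors, and the footprint to RNA ratio is footprint CPM over total RNA CPM in a culture. The footprint to RNA ratio of Apobec1 reached at most 0.0210 in KO cultures, against 0.148 to 0.286 in WT cultures, while its total RNA averaged 988 ± 273 CPM in KO cultures and 386 ± 65.6 CPM in WT cultures (SD, n = 6 each). All 8 macrophage markers checked were present, summing to 15257 to 25118 CPM in batch 3, 27414 to 48906 CPM in batch 2 and 21467 to 28692 CPM in batch 1. The 10 neutrophil and granulocyte precursor markers summed to 419 to 560 CPM in batch 3, 61.6 to 445 CPM in batch 2 and 4.55 to 7.87 CPM in batch 1. The 10 markers of proliferating cells summed to 1941 to 2480 CPM in batch 3, 1089 to 1887 CPM in batch 2 and 1420 to 1675 CPM in batch 1, and the 3 mast cell markers to 40.0 to 68.8, 1.65 to 3.85 and 6.68 to 12.7 CPM in the same order. The 3 osteoclast markers summed to 22.4 to 45.9, 11.5 to 99.9 and 12.1 to 18.6 CPM in that order, and the 3 dendritic cell markers to at most 3.85 CPM. The 3 stromal markers stayed at or below 1.49 CPM and the lymphocyte markers at or below 0.331 CPM in every library. Total RNA held 172 to 386 counts of Xist, the RNA that coats the inactive X chromosome, in batch 3 and 2 to 11 elsewhere. Y-linked Ddx3y had 0 to 1 counts in batch 3 and at least 374 elsewhere, and the labels give no sex.

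In the RefSeq annotation of GRCm38.p6, the patch release of the mm10 assembly that the submitters' processing notes name, Odc1 lies on chromosome 12 (17544808 to 17551502), Oaz1 on chromosome 10 (80826656 to 80829290), Oaz2 on chromosome 9 (65676548 to 65690300) and Azin1 on chromosome 15 (38487430 to 38519294). Amd1 lies on chromosome 10 (40287458 to 40302188) and Srm on chromosome 4 (148591513 to 148594619). Sat1 (155213126 to 155216449) and Sms (157443851 to 157492287) both lie on the X chromosome. RefSeq also lists Amd2 and 7 Amd pseudogenes beside Amd1, and the pseudogenes Oaz1-ps, Oaz2-ps and Sms-ps. Reads of Amd1, Oaz1, Oaz2 and Sms can thus match more than 1 place, and their counts are uncertain. Copies of Odc1, Azin1, Sat1 and Srm were not searched for. Reads without a unique alignment made up 27.8% to 51.2% of total RNA reads and 45.6% to 80.1% of footprint reads. In footprints they were 45.6% to 58.5% in batch 3, 49.6% to 60.1% in batch 2 and 59.3% to 80.1% in batch 1. Total RNA reads outside every counted gene were 4.32% to 5.53% in batch 3, 14.1% to 19.2% in batch 2 and 8.46% to 10.7% in batch 1. Amd1 had 0 to 4 counts in the total RNA libraries and 0 counts in all 12 footprint libraries, and its copy Amd2 had 0 counts in every library. A footprint count of 0 allows up to 0.822 CPM in KO4, the lowest such limit, and 80.4 CPM in WT6 (3 counts, counting error only). Amd1 was therefore not measurable here and enters no test.

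Promoter sequence is shown for Odc1, Oaz1 and Sms, whose total RNA was higher in batch 3 than in batch 2, and for Oaz2, whose total RNA was lower there (6 of the 8 members matched an entry, all but Azin1 and Srm). Each is the stretch just upstream of the annotated gene in RefSeq (GRCm38.p6), 5′ to 3′ on the gene's strand: Odc1 at chr12:17544623-17544807 (plus strand, 185 bases), Oaz1 at chr10:80826406-80826655 (plus strand), Oaz2 at chr9:65676298-65676547 (plus strand) and Sms at chrX:157492288-157492537 (minus strand, 250 bases each for these 3 genes). Capitals mark matches on either strand to the E-box CACGTG, which MYC and its relatives bind. They also mark TATAAA, the core of the TATA box. The other motifs searched were the CCAAT box, spelled as its name, and the GC box, spelled GGGCGG.
Odc1: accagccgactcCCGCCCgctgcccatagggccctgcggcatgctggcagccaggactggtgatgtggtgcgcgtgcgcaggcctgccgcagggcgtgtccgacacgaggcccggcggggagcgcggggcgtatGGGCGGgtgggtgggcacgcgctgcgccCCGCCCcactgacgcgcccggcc
Oaz1: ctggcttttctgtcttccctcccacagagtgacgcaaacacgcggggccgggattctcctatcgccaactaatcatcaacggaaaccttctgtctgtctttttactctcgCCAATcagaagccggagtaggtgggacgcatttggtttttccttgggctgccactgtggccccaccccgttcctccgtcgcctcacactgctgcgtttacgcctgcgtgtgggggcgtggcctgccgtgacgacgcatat
Oaz2: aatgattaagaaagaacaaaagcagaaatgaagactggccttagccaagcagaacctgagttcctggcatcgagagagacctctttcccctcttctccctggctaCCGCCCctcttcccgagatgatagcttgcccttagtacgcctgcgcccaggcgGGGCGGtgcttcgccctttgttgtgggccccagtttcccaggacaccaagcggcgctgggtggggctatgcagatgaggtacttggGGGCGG
Sms: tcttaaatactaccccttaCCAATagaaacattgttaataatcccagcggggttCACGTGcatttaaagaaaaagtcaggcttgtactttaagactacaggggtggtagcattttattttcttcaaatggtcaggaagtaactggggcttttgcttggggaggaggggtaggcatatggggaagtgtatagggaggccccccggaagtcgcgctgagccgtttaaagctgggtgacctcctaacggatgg
The Sms window held an E-box 196 bases and a CCAAT box 231 bases upstream of the start. The Oaz1 window held a CCAAT box and the Odc1 and Oaz2 windows held 3 GC boxes each. Among 32851 RefSeq windows of 250 bases, 6.02% held CACGTG, 12.4% TATAAA, 33.8% CCAAT and 32.7% GGGCGG. A match is a run of letters and not a shown binding site.

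The total RNA of most of these genes differed among batches. Relative to batch 2, total RNA in batch 3 was 2.07-fold higher for Odc1, 1.90-fold for Oaz1, 2.33-fold for Azin1, 1.46-fold for Srm and 2.36-fold for Sms, while Oaz2 was 1.49-fold lower. With genotype in the model, 6 of the 7 members that passed the filter on low counts differed among batches (edgeR quasi-likelihood F-test of both batch terms, Benjamini-Hochberg adjusted p under 0.05), where 61.6% of the 10942 genes tested did. In batch 3 against batch 2, 5 of 7 members were higher and 1 lower, where 24.7% of all genes were higher and 24.5% lower. Calls among batches were thus common over all genes. In such bulk samples fewer cells of a type and less RNA per cell cannot be told apart.

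Odc1, the rate-limiting enzyme, had 133 and 89.7 CPM in the KO cultures and 91.7 and 83.4 CPM in the WT cultures of batch 3. In batch 2 it had 47.5, 49.7 and 49.6 CPM in KO cultures and 49.5 CPM in WT4, and in batch 1 it had 89.85 CPM in KO1 and 81.7, 85.7 and 80.0 CPM in WT cultures. The 4 cultures of batch 2 thus lay below the other 8, and batches 3 and 1 overlapped. The log2 difference was 1.05 (SE 0.12, adjusted p = 1.48e-05) for batch 3 against batch 2, 0.19 (SE 0.12, adjusted p = 0.211) for batch 3 against batch 1 and -0.87 (SE 0.13, adjusted p = 7.14e-04) for batch 2 against batch 1, in edgeR. KO5 stood above the other cultures of its batch.

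The synthases that use the aminopropyl donor were both highest in batch 3. Sms total RNA was 154 and 125 CPM in KO cultures and 152 and 118 CPM in WT cultures of batch 3, 62.5, 75.3 and 52.1 CPM in KO cultures and 46.1 CPM in WT4 of batch 2, and 62.1 CPM in KO1 and 73.3, 76.9 and 73.6 CPM in WT cultures of batch 1. Every culture of batch 3 lay above every other culture, with log2 differences of 1.24 (SE 0.15) over batch 2 and 0.92 (SE 0.15) over batch 1 (adjusted p = 2.42e-05 and 2.25e-04, edgeR). Srm total RNA was 22.5 and 22.5 CPM in KO cultures and 12.8 and 18.7 CPM in WT cultures of batch 3, against 10.9 to 15.7 CPM in batch 2 and 10.7 to 12.5 CPM in batch 1. Its batch 3 range lay above batch 1 (log2 0.73, SE 0.18, adjusted p = 0.0055) and overlapped batch 2 (log2 0.54, SE 0.18, adjusted p = 0.0243). Sms is X-linked, and the Xist counts given above were also highest in batch 3. The part of Xist in the Sms result was not tested.

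The antizymes moved apart. Oaz1 total RNA was 67.5 and 58.7 CPM in KO cultures and 73.3 and 58.7 CPM in WT cultures of batch 3, against 29.0 to 37.7 CPM in batch 2 and 28.9 to 46.5 CPM in batch 1. Every culture of batch 3 lay above all others, by a log2 difference of 0.92 (SE 0.14, adjusted p = 1.39e-04) over batch 2 and 0.75 (SE 0.14, adjusted p = 6.32e-04) over batch 1. Oaz2 ran the other way, with 30.9 and 34.8 CPM in KO cultures and 39.4 and 31.5 CPM in WT cultures of batch 3, 49.1, 49.7 and 54.7 CPM in KO cultures and 49.3 CPM in WT4 of batch 2, and 33.7 to 37.6 CPM in batch 1. Batch 2 lay above both others, which overlapped. The Oaz2 log2 difference was -0.57 (SE 0.10, adjusted p = 4.01e-04) for batch 3 against batch 2 and 0.50 (SE 0.10, adjusted p = 0.00506) for batch 2 against batch 1.

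Azin1, the antizyme inhibitor, was the member whose total RNA separated all 3 batches. It had 522 and 424 CPM in KO cultures and 441 and 380 CPM in WT cultures of batch 3. In batch 2 it had 203, 194 and 174 CPM in KO cultures and 189.5 CPM in WT4, and in batch 1 it had 298 CPM in KO1 and 304, 364 and 329.9 CPM in WT cultures. No culture of batch 3 fell within the range of batch 1, and none of batch 1 within that of batch 2. The log2 differences were 1.22 (SE 0.11) for batch 3 against batch 2 and 0.44 (SE 0.11) for batch 3 against batch 1 (adjusted p = 1.97e-06 and 0.0055, edgeR). Sat1, the acetyltransferase, did not pass, with 254 to 420 CPM over the 12 cultures, overlapping ranges in every pair of batches and an adjusted p of 0.0855 for the batch terms. WT5 was its highest culture.

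**Figure D1:**
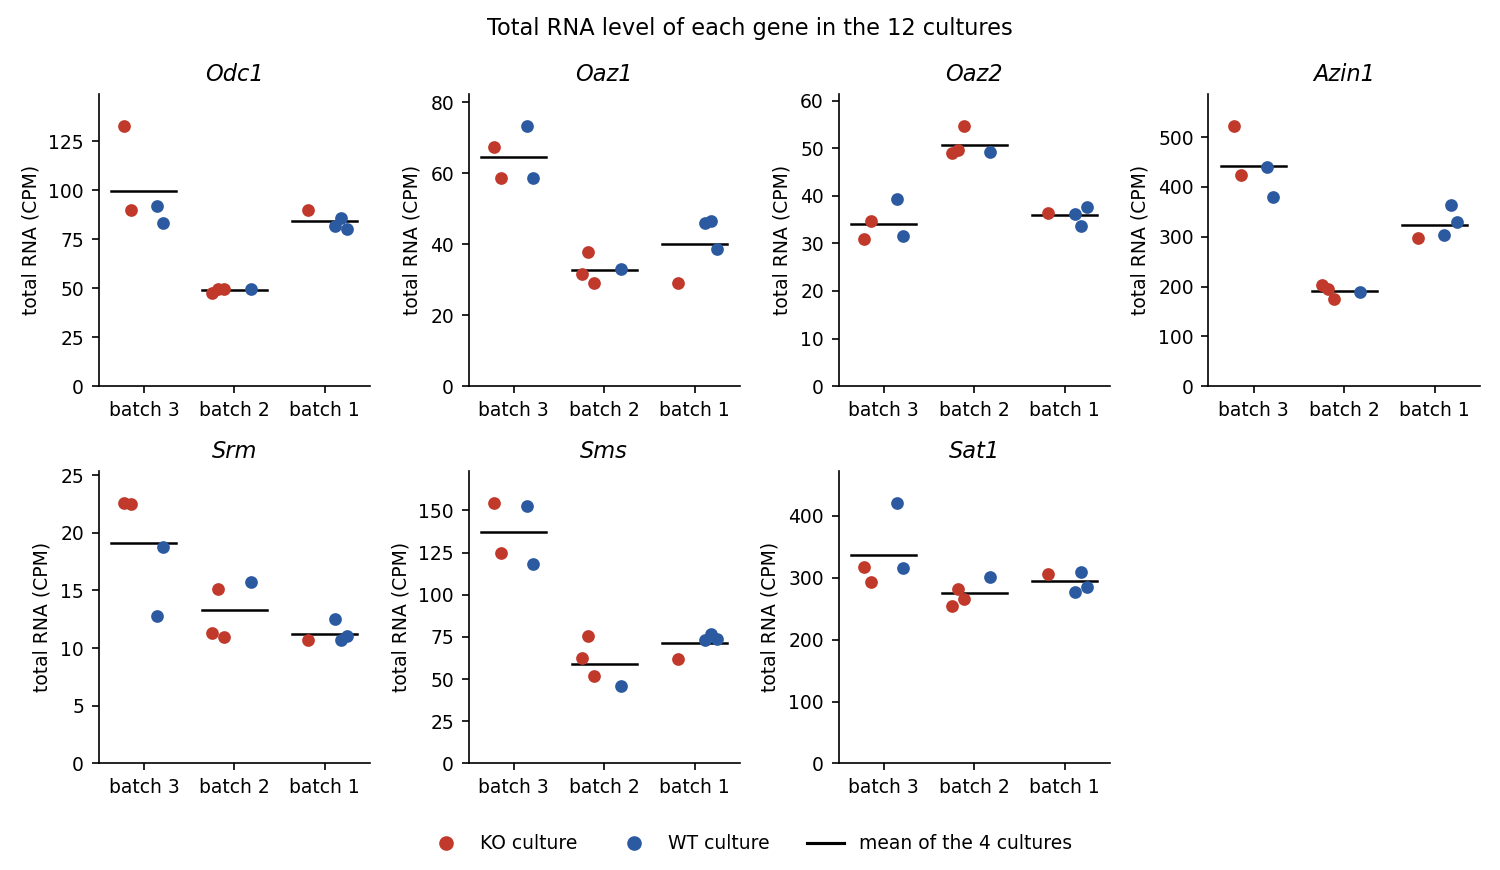
Total RNA level (CPM, linear axis from 0) of the 7 members that passed the filter, 1 point for each culture, KO left of WT within batches 3, 2 and 1, with the mean of the 4 cultures of a batch as a line. Sms and Oaz1 lie highest in batch 3, Odc1 and Azin1 lowest in batch 2, and Oaz2 highest in batch 2.

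Footprints did not follow total RNA for several members. In footprints, 3 of the 6 members tested differed among batches, Oaz1, Sat1 and Srm, where 33.4% of 7208 genes did. Oaz2 and Amd1 did not pass the footprint filter. Oaz1 footprints were 73.0 and 63.7 CPM in KO cultures and 91.9 and 26.8 CPM in WT cultures of batch 3, where they rest on 16, 6, 20 and 1 counts. They were 61.3, 66.9 and 105 CPM in KO cultures and 89.3 CPM in WT4 of batch 2, and 95.7 CPM in KO1 and 161, 190 and 130 CPM in WT cultures of batch 1. Every batch 3 culture thus lay below every batch 1 culture in footprints, while it lay above all of them in total RNA. The Oaz1 footprint difference was -0.81 on the log2 scale (SE 0.28) for batch 3 against batch 1, and the F-test of the batch terms gave an adjusted p of 0.0245, which reached 0.103 without WT4, 0.0585 without WT1 and 0.0526 without WT2.

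Sat1 footprints differed among batches although its total RNA did not pass the test. They were 105, 106 and 95.3 CPM in KO cultures and 88.2 CPM in WT4 of batch 2, against 40.6 CPM in KO1 and 31.5, 38.7 and 32.8 CPM in WT cultures of batch 1, with no overlap. In batch 3 they were 123 and 84.9 CPM in KO cultures and 73.5 and 0 CPM in WT cultures, the last on 0 counts in WT6, which allows up to 80.4 CPM (3 counts, counting error only). The log2 difference was 1.32 (SE 0.21, adjusted p = 7.84e-05) for batch 2 against batch 1 and 1.21 (SE 0.29, adjusted p = 0.00279) for batch 3 against batch 1. Srm footprints were 68.4 and 53.1 CPM in KO cultures and 36.8 and 107 CPM in WT cultures of batch 3, above all cultures of batch 2 (14.9 to 25.1 CPM) and batch 1 (16.8 to 23.6 CPM). The Srm difference was 1.71 (SE 0.35, adjusted p = 4.84e-04) over batch 2 and 1.57 (SE 0.38, adjusted p = 0.00295) over batch 1, on 4 to 15 counts a library in batch 3.

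The other members gave no call in footprints. Azin1 footprints stayed within 71.0 to 117 CPM over the 12 cultures (batch terms, adjusted p = 0.142), although its total RNA ranged from 174 to 522 CPM. Batch 3 (80.4 to 117 CPM) still lay above batch 1 (71.0 to 78.9 CPM) in Azin1 footprints, as it did in total RNA. That footprint difference was 0.51 on the log2 scale (SE 0.23, adjusted p = 0.122 in edgeR). Sms footprints were 22.6 to 107 CPM (adjusted p = 0.456) and Odc1 footprints 7.31 to 42.5 CPM (adjusted p = 0.154). Odc1 rested on 1 to 7 counts in each library of batch 3, where a difference of the size seen in its total RNA was not detectable. Oaz2 had 0 to 48 footprint counts a library, and was at 0 in KO5 and WT6.

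**Figure D2:**
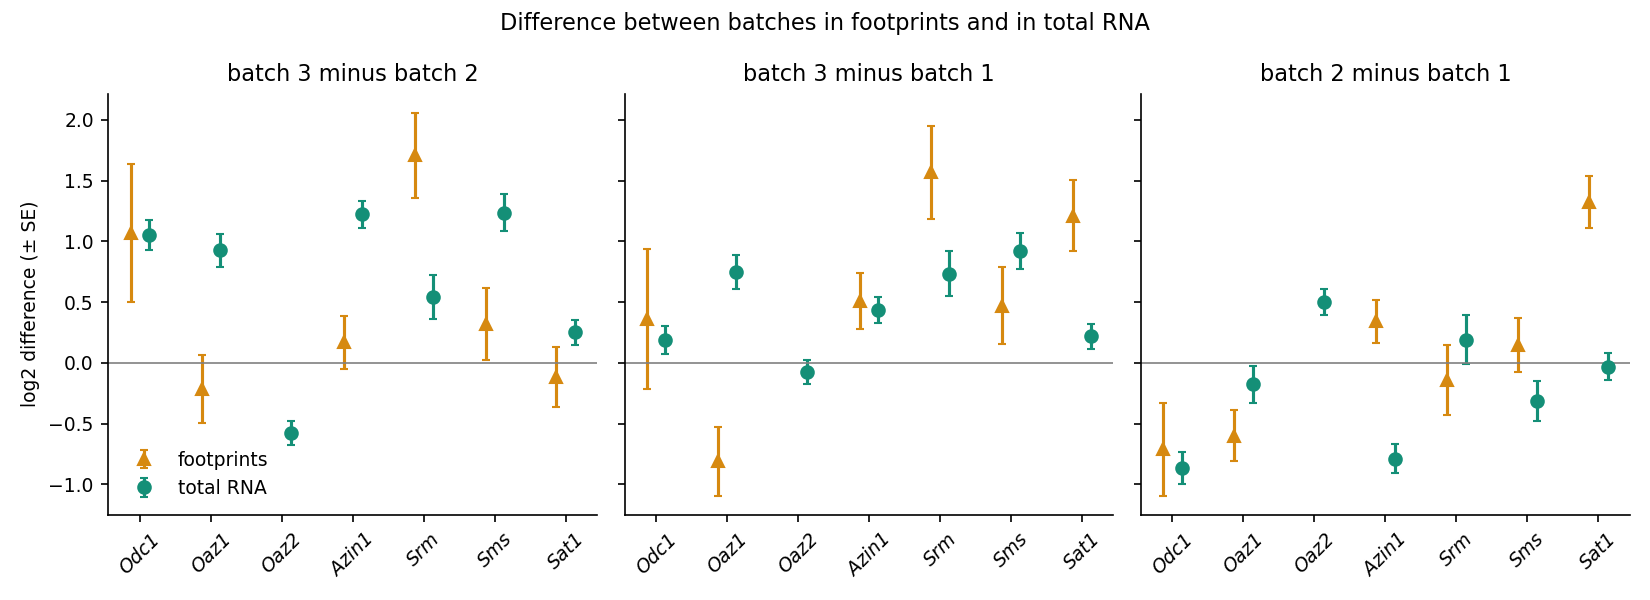
Log2 difference between batches, ± SE, in footprints (triangles) and total RNA (circles) of the members tested, with genotype in the model, 4 cultures a batch. Oaz1 footprints and total RNA lie on opposite sides of 0 in batch 3 minus batch 1, Sat1 footprints lie above its total RNA in both comparisons with batch 1, and Azin1 total RNA is at -0.79 and its footprints at 0.34 in batch 2 minus batch 1.

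Set against total RNA in a single model of the 24 libraries, with equal weight for batches and genotypes, all 6 members tested departed from the average gene. Oaz1 (2.19-fold) and Srm (1.89-fold) had more footprints than total RNA. Sat1 (4.48-fold), Odc1 (4.14-fold), Azin1 (3.26-fold) and Sms (1.63-fold) had fewer. The log2 differences were 1.13 (SE 0.13) for Oaz1, 0.92 (SE 0.15) for Srm, -0.71 (SE 0.12) for Sms, -1.70 (SE 0.08) for Azin1, -2.05 (SE 0.16) for Odc1 and -2.16 (SE 0.09) for Sat1, with the largest adjusted p at 5.77e-06. Of 7203 genes tested, 71.4% departed, 34.7% with more footprints and 36.7% with fewer, so a call alone says little, and the position among all genes says more. Sat1 was at percentile 1.74, Odc1 at 2.19, Azin1 at 4.19 and Sms at 22.6 of all genes in this difference, and Srm at 90.3 and Oaz1 at 94.6. The footprint counts cover coding sequence only and the region of the total RNA counts is not stated. A long or short untranslated part of an mRNA thus shifts such a value, and the order of genes is a description. Reads without a unique alignment were 45.6% to 80.1% of footprint and 27.8% to 51.2% of total RNA reads, and their part in these values was not tested.

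**Figure D3:**
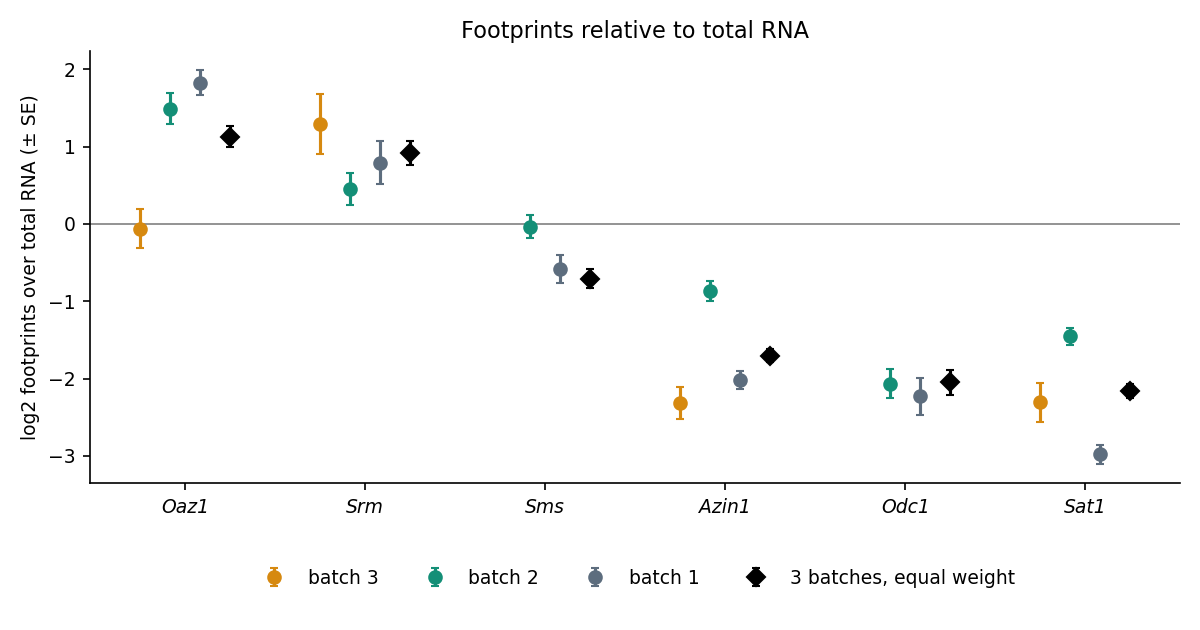
Log2 footprints over total RNA, ± SE, of the 6 members tested, in batches 3, 2 and 1 fitted alone (circles, 4 cultures each) and in the 3 batches with equal weight (diamonds). Odc1 and Sms have no batch 3 value because they did not pass the filter there, and Oaz1 is at -0.06 in batch 3 and above 1 in both other batches.

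Within batches the position of Oaz1 did not hold. Its log2 footprint to RNA difference was -0.06 (SE 0.26, adjusted p = 0.898) in batch 3 alone, 1.49 (SE 0.20) in batch 2 alone and 1.82 (SE 0.16) in batch 1 alone. Srm kept its sign, at 1.29 (SE 0.38) in batch 3, 0.45 (SE 0.21) in batch 2 and 0.79 (SE 0.28) in batch 1. Azin1 was at -2.32 (SE 0.20), -0.87 (SE 0.13) and -2.02 (SE 0.11) and Sat1 at -2.31 (SE 0.25), -1.45 (SE 0.11) and -2.98 (SE 0.12) in batches 3, 2 and 1. Odc1 was at -2.07 (SE 0.19) in batch 2 and -2.23 (SE 0.24) in batch 1, where Sms was at -0.04 (SE 0.15) and -0.58 (SE 0.18). Sat1, Azin1 and Odc1 thus had fewer footprints than the average gene in each batch that could be fitted.

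The footprint to RNA ratio itself differed among batches for 3 of the 6 members, Oaz1, Azin1 and Sat1, where 18.8% of 7203 genes did (edgeR, F-test of both molecule by batch terms). With each culture as a block, which compares the footprint and the total RNA library of the same culture, 2534 genes were called in place of 1354, Sms (adjusted p = 0.00265) and Srm (adjusted p = 0.0213) were called too, and the 3 calls held. Oaz1 ratios were 1.08 and 1.08 in KO cultures and 1.25 and 0.457 in WT cultures of batch 3, 1.94, 1.77 and 3.64 in KO cultures and 2.71 in WT4 of batch 2, and 3.31 in KO1 and 3.49, 4.09 and 3.36 in WT cultures of batch 1. Batch 3 lay below both other batches, and batches 2 and 1 overlapped. The log2 difference was -1.61 (SE 0.32) for batch 3 against batch 1 and -1.18 (SE 0.32) for batch 3 against batch 2 (adjusted p = 0.00951 and 0.0186). Batch 3 held the shallowest footprint libraries, and the part of depth in this result was not tested.

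Azin1 ratios were 0.201 and 0.275 in KO cultures and 0.250 and 0.211 in WT cultures of batch 3, 0.514, 0.549 and 0.446 in KO cultures and 0.502 in WT4 of batch 2, and 0.251 in KO1 and 0.243, 0.195 and 0.239 in WT cultures of batch 1. All 4 cultures of batch 2 lay above the other 8, by a log2 difference of 1.12 (SE 0.19, adjusted p = 2.37e-04) over batch 1, while batch 3 differed from batch 2 by -1.098 (SE 0.21, adjusted p = 0.00139). Batch 2 was also the batch where Azin1 total RNA was lowest. In the 4 cultures with at least 1000000 footprint counts (KO2, KO4 and WT4 of batch 2, WT1 of batch 1) the difference was 1.06, which with genotype in the model sets WT4 against WT1, 1 culture each, and is given as a value with no test.

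Sat1 ratios were 0.412, 0.374 and 0.358 in KO cultures and 0.293 in WT4 of batch 2, against 0.132 in KO1 and 0.114, 0.125 and 0.115 in WT cultures of batch 1, with no overlap. In batch 3 they were 0.389 and 0.290 in KO cultures and 0.175 and 0 in WT cultures. The log2 difference was 1.36 (SE 0.22, adjusted p = 1.97e-04) for batch 2 against batch 1. Between WT4 and WT1, the deep WT cultures of these batches, it was 1.38, a value with no test. Ratios by batch averaged 0.304 ± 0.170 in batch 3, 0.237 ± 0.0974 in batch 2 and 0.189 ± 0.0950 in batch 1 for Odc1 (SD, n = 4 each; batch terms, adjusted p = 0.974 in edgeR). For Srm they averaged 3.50 ± 1.51, 1.39 ± 0.215 and 1.74 ± 0.327, and for Sms 0.520 ± 0.260, 0.833 ± 0.229 and 0.594 ± 0.216, in batches 3, 2 and 1 (SD, n = 4 each). Neither passed in edgeR without the culture block and with all cultures and the filter on low counts (adjusted p = 0.0900 for Srm and 0.0724 for Sms). Srm passed in DESeq2 (adjusted p = 0.0486) and in edgeR without WT5 (0.0469), and Sms passed in edgeR with no filter (0.0494), without KO3 (0.0439) and without WT2 (0.0485). Leaving out 1 culture also took the adjusted p in edgeR as high as 0.347 for Srm and 0.269 for Sms. Whether either passed thus depended on single cultures and on the processing. The marker sums and the Xist and Ddx3y counts given above also differed among batches. So did the shares of reads without a unique alignment and outside counted genes. The part of all these in the results was not tested.

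**Figure D4:**
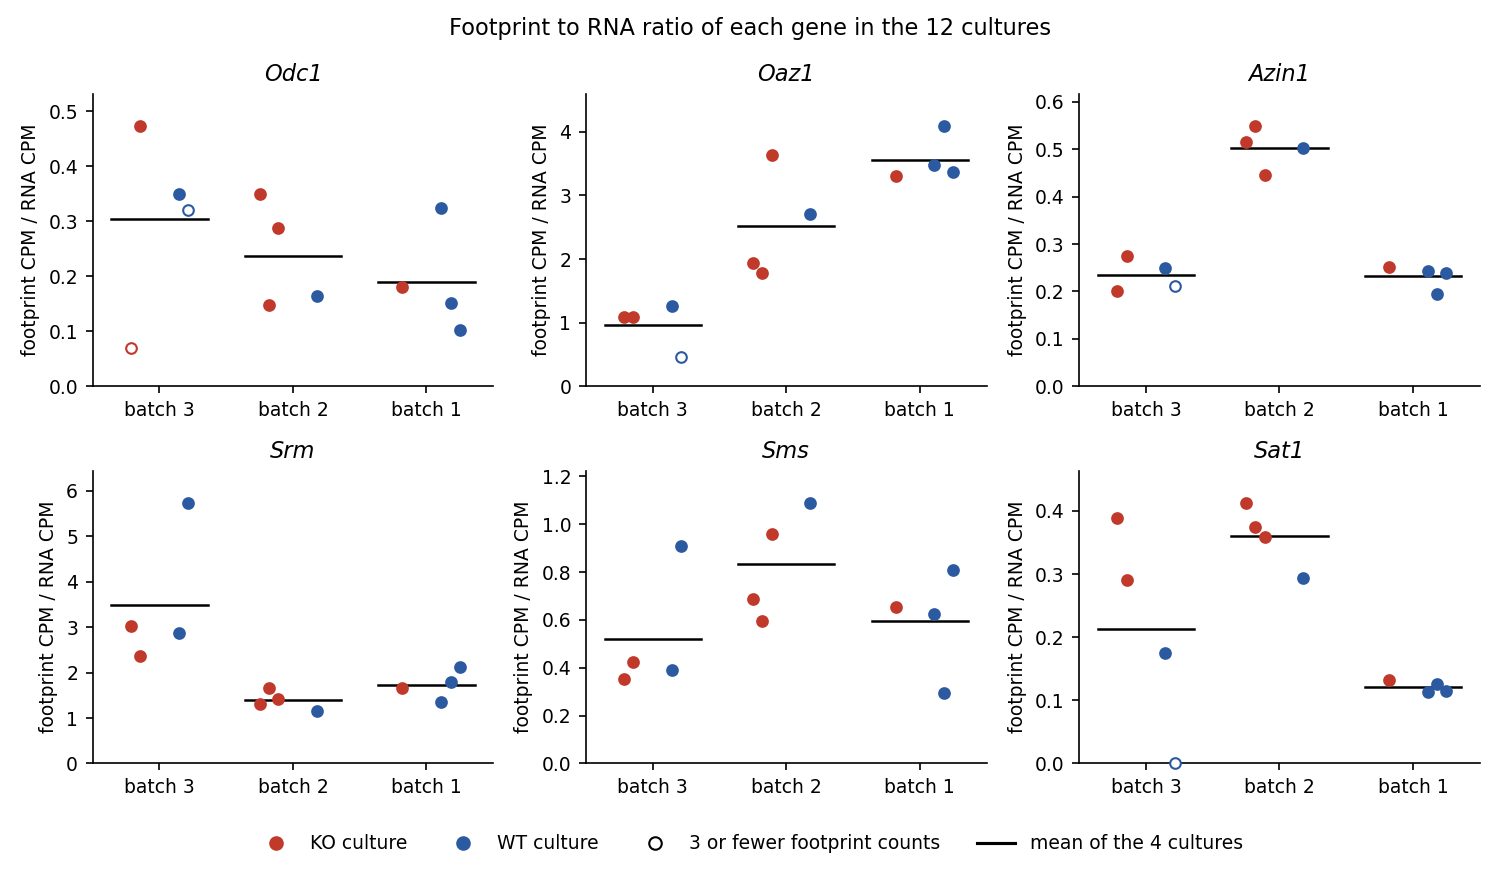
Footprint to RNA ratio (footprint CPM over total RNA CPM, linear axis from 0) of the 6 members tested, 1 point for each culture, KO left of WT within batches 3, 2 and 1, open points resting on 3 or fewer footprint counts, with the mean of 4 cultures as a line. Azin1 and Sat1 ratios of batch 2 lie above those of batch 1, and Oaz1 ratios of batch 3 lie below all others.

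No member passed the test for the loss of Apobec1. Of the members tested, 0 of 7 passed in total RNA, 0 of 6 in footprints and 0 of 6 in the footprint to RNA ratio (edgeR with batch in the model, adjusted p under 0.05), where 0.0183%, 0.0832% and 0.0139% of all genes did. At an unadjusted p under 0.05 the members gave 0 of 7 in total RNA, 0 of 6 in footprints and 1 of 6 in the ratio, Sat1, and DESeq2 called 0 members in each. Over all genes such a p was reached by 512 of 10942, 614 of 7208 and 181 of 7203. The median log2 difference of the members, KO minus WT, was 0.04 in total RNA, 0.01 in footprints and -0.07 in the ratio, beside -0.0016, 0.015 and -0.00066 for all genes tested.

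Odc1 total RNA averaged 76.5 ± 34.0 CPM in KO cultures and 78.7 ± 14.9 CPM in WT cultures (SD, n = 6 each), a log2 difference of 0.17 (95% interval from its SE and the residual degrees of freedom, -0.06 to 0.41) with batch in the model. Its footprint difference of 0.29 had an interval of -0.52 to 1.102, which spans values of either sign. Within batches the Odc1 footprint difference was 0.78 in batch 2 and -0.19 in batch 1. The ratio difference of Odc1 was 0.80 in batch 2 and -0.37 in batch 1. These are values with no test, since WT4 and KO1 are the only cultures of their genotype there. In batch 3 alone Odc1 did not pass the footprint filter. Oaz1 averaged 42.3 ± 16.7 CPM in KO cultures and 49.4 ± 14.6 CPM in WT cultures in total RNA, a log2 difference of -0.20 (interval -0.48 to 0.08). Oaz1 footprints averaged 77.7 ± 18.4 CPM in KO cultures and 115 ± 58.2 CPM in WT cultures, a difference of -0.37 (interval -0.82 to 0.08, adjusted p = 0.644 in edgeR). Within batches that footprint difference was -0.27 in batch 3, -0.17 in batch 2 and -0.70 in batch 1. The groups overlapped for Odc1 and for Oaz1 in all 3 measures.

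The other members gave no call either. The total RNA log2 difference was -0.02 (interval -0.22 to 0.18) for Oaz2, 0.04 (interval -0.18 to 0.26) for Azin1, 0.09 (interval -0.28 to 0.46) for Srm, 0.07 (interval -0.24 to 0.37) for Sms and -0.13 (interval -0.34 to 0.08) for Sat1. In footprints Azin1 differed by 0.01 (SE 0.16), Srm by 0.01 (SE 0.26) and Sms by -0.18 (SE 0.20), and in the ratio Odc1 by 0.13 (SE 0.35), Oaz1 by -0.17 (SE 0.24), Azin1 by -0.04 (SE 0.17), Srm by -0.11 (SE 0.29) and Sms by -0.25 (SE 0.24). For every member tested the lowest and highest KO and WT values overlapped in each measure.

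Sat1 was the member with the smallest p for genotype. Its footprints differed by 0.34 on the log2 scale (SE 0.19, interval -0.10 to 0.78) and its footprint to RNA ratio by 0.46 (SE 0.19), which edgeR gave an unadjusted p of 0.0269 and an adjusted p above 0.99 (0.9999). The ratio averaged 0.326 ± 0.104 in KO cultures and 0.137 ± 0.0957 in WT cultures (SD, n = 6 each), but 3 of the 6 KO cultures belong to batch 2 and 3 of the 6 WT cultures to batch 1, where Sat1 ratios differ as given above. Within batches the KO ratios lay above the WT ratios, at 0.389 and 0.290 against 0.175 and 0 in batch 3 (0 counts in WT6 allow up to 0.254), 0.412, 0.374 and 0.358 against 0.293 in batch 2, and 0.132 against 0.114 to 0.125 in batch 1. The single-batch log2 differences were 1.07 (SE 0.54), 0.36 (SE 0.21) and 0.23 (SE 0.30) in batches 3, 2 and 1. Without batch 3 the difference was 0.28 (edgeR, unadjusted p = 0.0878). The headers of the authors' deposited DESeq2 tables name neither the contrast nor its direction, so their values cannot be read as KO minus WT. In the authors' deposited table over all genes, Sat1 had a log2 fold change of -0.957, a p-value of 6.40e-04 and an adjusted p-value of 0.677. The authors' deposited table of the top 25 percent of genes gave -0.942, 5.82e-04 and 0.297. Among the members, the next smallest p-value in the authors' deposited table over all genes was 0.158, for Azin1.

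**Figure D5:**
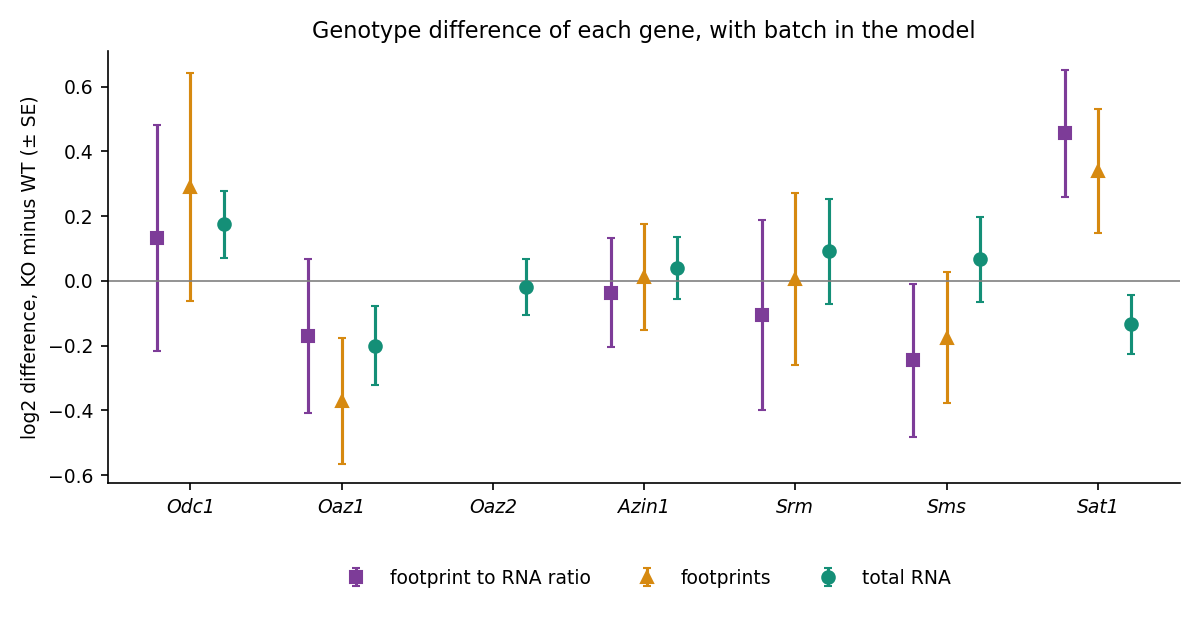
Log2 difference, KO minus WT, ± SE, of each member in the footprint to RNA ratio (squares), footprints (triangles) and total RNA (circles), with batch in the model and 6 cultures a genotype. All values lie between -0.37 and 0.46, and Sat1 has the highest ratio difference, which did not pass after adjustment.

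The 27 other genes of the pathway were listed by role, and all 27 were found, Azin2 and Slc18b1 under older symbols. Of these, 22 passed the filter in total RNA and 18 in footprints, and 0 differed with genotype in total RNA, footprints or the ratio. Among batches, 16 of 22 differed in total RNA, 3 of 18 in footprints and 2 of 18 in the ratio, beside 61.6%, 33.4% and 18.8% of all genes. Adi1, an enzyme of methylthioadenosine salvage, was higher in batch 3 by 1.03 over batch 2 and 1.02 over batch 1 on the log2 scale in total RNA (adjusted p = 8.84e-06 for the batch terms). Eif5a, the translation factor that carries the spermidine-derived residue hypusine, was higher by 0.72 and 0.69, and Slc7a1, a transporter of arginine, by 1.03 and 1.14 (adjusted p = 1.11e-05 and 1.50e-04). Smox, which oxidises spermine, was lower in batch 3 than in batch 2 by -0.56 (adjusted p = 7.68e-04 for the batch terms). Azin2, the relative of Azin1, was lower in batch 3 than in batch 1 by -1.58 in total RNA (adjusted p = 0.00284), on 178 counts in the 12 libraries.

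In footprints Slc7a1 was higher in batch 3 by 2.01 over batch 2 and 1.34 over batch 1 (adjusted p = 5.39e-05), and Myc, a transcription factor known to act on Odc1, differed by 1.16 for batch 3 against batch 2 and 0.30 for batch 3 against batch 1 (adjusted p = 0.00616). Atp13a2 differed by -0.74 in footprints and -0.93 in the ratio for batch 2 against batch 1 (batch terms in edgeR, adjusted p = 0.0355 and 0.0357). The other gene called in the ratio was Eif5a, at -0.59 for batch 3 against batch 2 (adjusted p = 0.0384 for the batch terms). Set against total RNA, 12 of the 18 departed from the average gene, 8 with more footprints and 4 with fewer, beside 34.7% and 36.7% of all genes. Myc (1.92, SE 0.24), Slc3a2, a subunit of amino acid transporters (1.84, SE 0.08), and Eif5a (1.05, SE 0.07) had more footprints. Atp13a3 (-2.06, SE 0.12) and Atp13a2 (-1.47, SE 0.11), which transport polyamines, Smox (-0.99, SE 0.11) and Dohh, which completes hypusine (-0.88, SE 0.12), had fewer. Arg1 and Arg2, the arginases that supply ornithine, had 7 and 97 total RNA counts in all 12 libraries and did not pass the filter.

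For the 6 members that differed among batches in total RNA, the genes with the most similar profile were found by the root mean square difference of centred log2 CPM over the 12 total RNA libraries, among 10942 genes. Nearest to Odc1 were Orc2 (0.14) and Hat1 (0.14), to Oaz1 Uchl5 (0.15) and Fkbp4 (0.15), and to Oaz2 1110038B12Rik (0.10) and Cnnm4 (0.10). Nearest to Azin1 were Ugp2 (0.13) and 2410042D21Rik (0.14), to Srm P2ry2 (0.12) and Rps6kb2 (0.13), and to Sms Tmem144 (0.11) and AI597468 (0.11). The members' own SD over the same libraries ran from 0.28 for Oaz2 to 0.58 for Sms on this scale. None of these nearest genes is another member. All 12 libraries share the batches described above.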

How the data were processed

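The authors deposited whole-number counts per gene symbol for each library, not normalized, per the file headers and labels: footprint counts over coding sequence, and total RNA counts marked strict with no stated region. Genes that a footprint file does not list were taken as 0, and the 5 HTSeq summary lines were left out. The submitters' processing notes name the mm10 build, and among tools DESeq, DESeq2, Cufflinks 2.2.1, HTSeq, TopHat2 2.1.0, Bowtie 1.1.2 and Trim Galore. In the sources used here, strandedness and the treatment of reads with several alignments are not given. DESeq2 tables deposited by the authors hold a mean normalized signal, a log2 fold change, a test score and p-values before and after adjustment.

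These counts were fitted in R 4.3.3 with edgeR 4.0.16 (limma 3.58.1), using TMM factors, filterByExpr at a least count of 10, and quasi-likelihood F-tests with robust estimation. P-values were adjusted after Benjamini and Hochberg over all genes tested (threshold 0.05). Models held genotype and batch, and the ratio was an interaction over the 24 libraries. Scripts were tested on simulated data. Intervals use the SE with 8 residual degrees of freedom. Alternatives used DESeq2 1.42.0, other filters, terms, blocks and subsets. The labels pair the 2 libraries of a culture, and these deviated together from their group means in 12 of 12 cultures (correlations 0.219 to 0.558). Group means leave batch in these deviations. From the means of genotype and batch together, 6 of 10 correlations were over 0.1, the lowest was -0.0039, and the 4 cultures of batch 3 were all under 0.1. Where a genotype has 2 cultures in a batch their deviations mirror each other. KO5 and KO6 thus share 1 value (0.0645), as do WT5 and WT6 (-0.0039), and the 10 correlations are not all separate. The members, the lists of pathway genes and markers, and the rule for named genes (all members, called pathway genes, and the 2 genes with the profile nearest to each called member) were chosen with earlier results of these data known. Only a part of the called pathway genes is named above.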

Additional observations from a re-analysis of the deposited data

Results flagged for a closer look

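Single cultures stood apart from the rest of their group in 11 of 105 sets of values tested (Dixon's gap ratio at the 95% level). Chance flags about 1 in 20 groups of like cultures, but the sets by genotype mix batches that differ, so that rate does not hold for them. In total RNA these were Odc1 in KO5, at 133 CPM in batch 3 with the next culture at 91.7 CPM, Odc1 in KO2, at 47.5 CPM in batch 2 with the next at 49.5 CPM, and Odc1 in WT4, at 49.5 CPM among WT cultures with the next at 80.0 CPM. WT4 is the only WT culture of batch 2, where all 4 cultures had 47.5 to 49.7 CPM of Odc1. Oaz2 in KO4 had 54.7 CPM in batch 2, and Sat1 in WT5 had 420 CPM among WT cultures. Several of these gaps are small beside the levels, as for Odc1 in KO2.

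In footprints, Odc1 in KO6 had 42.5 CPM among KO cultures, on 4 counts. In WT6, the shallowest library, Srm had 107 CPM among WT cultures and Sms 107 CPM in batch 3, both on 4 counts. The footprint to RNA ratio of Sms in WT6 was 0.907 in batch 3 and that of Oaz2 in KO3 was 0.357 in batch 2. The ratio of Azin1 in WT4 was 0.502 among WT cultures, where WT4 is the only culture of batch 2.

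The footprint to RNA ratio differed between batches by a test of the difference itself for Oaz1 (log2 -1.61 for batch 3 against batch 1), Azin1 (1.12 for batch 2 against batch 1) and Sat1 (1.36 for batch 2 against batch 1), with adjusted p of 0.00277, 1.84e-04 and 4.95e-04 for the batch terms in edgeR. Batch is not a condition of the study. Depth, markers of other cell types and the Xist and Ddx3y counts differed with it. The shares of reads without a unique alignment and outside counted genes did too, and the part of all these was not tested.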

How the results depend on the processing

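Counts of genes called moved by over 1.5 times in 19 of 48 alternatives other than leaving out a culture, and the causes were not tested. KO vs WT calls in total RNA (2) became 10 with no filter, 7 in DESeq2, 0 with a replicate block and 0 in batch 3 alone. In footprints (6) they became 159, 3, 3 and 2, and 1 with no batch term. In batch 3 alone the ratio gave 0 (1) and footprints vs total RNA 1526 (5140). In the 4 cultures with at least 1000000 footprint counts, where batch differences set WT4 against WT1 and the spread comes from KO2 and KO4 alone, KO vs WT gave 2740 in total RNA, 1413 in footprints and 2 in the ratio, and batches 3831 in total RNA (6742) and 900 in the ratio (1354). The culture block gave 2534 in the ratio among batches. Without batch 3, chosen after seeing the data, KO vs WT gave 19 in footprints and batches 1217 in footprints (2407). Leaving out each culture gave 2 to 9 for KO vs WT in total RNA and 1 (without WT4) to 269 (without KO1) in footprints, and 583 (without WT4) to 1564 for the ratio among batches. The labels do not pair KO and WT cultures with the same number. Those numbered 1, 4, 5 and 6 share a batch, and those numbered 2 and 3 do not. Correlations of their deviations ran from 0.0274 to 0.807 in total RNA and from 0.0732 to 0.328 in footprints. In each, 2 of 6 were highest with their own number. The replicate block is thus no paired test, and it called no member.

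Of 321 member values under such alternatives, 277 were counted as the same and 24 as changed in sign. All of the 24 but Oaz1 in footprints vs total RNA were values not called. Where a test was run, the same means that direction and side of the threshold were kept. Batches 1 and 2 alone had no test, and values not called were there sorted by distance from the main value, whatever their sign. The KO vs WT ratio of Odc1 in batch 1 (-0.37 beside 0.13) and of Srm in batch 2 (0.24 beside -0.11) thus counted as the same. With no batch term, KO vs WT log2 differences were -0.039 for Odc1, 0.17 for Oaz2, -0.14 for Azin1 and -0.024 for Sms in total RNA, -0.12 for Odc1 in footprints, and -0.10 for Odc1 and 0.30 for Azin1 in the ratio. The replicate block gave -0.025 for Odc1 and -0.088 for Azin1 in footprints, and the culture block 0.11 for Srm in the ratio. The deep cultures gave -0.022 for Odc1, 0.074 for Oaz2 and -0.49 for Srm in total RNA, -0.064 for Azin1 and -0.24 for Srm in footprints, 0.021 for Oaz1 and 0.26 for Srm in the ratio, and -0.97 for Odc1 in the ratio among batches. Batch 3 alone gave -0.017 for Azin1 in footprints and -0.063 for Oaz1 in footprints vs total RNA. Without batch 3, Srm was -0.079 in footprints, Azin1 0.079 and Srm 0.13 in the ratio, and Odc1 -0.0027 in the ratio among batches. Leaving out each culture, KO vs WT ranged in total RNA from -0.053 to 0.044 for Oaz2, -0.035 to 0.12 for Azin1, -0.058 to 0.27 for Srm and -0.083 to 0.21 for Sms. In footprints it ranged from -0.36 (without WT4) to 0.54 for Odc1, -0.036 to 0.060 for Azin1 and -0.15 to 0.10 for Srm, and in the ratio from -0.62 (without WT4) to 0.40 for Odc1 and -0.12 to 0.046 for Azin1. Odc1 in the ratio among batches ranged from -0.11 to 0.90. No member was called for genotype under any alternative with a test, which leaves out batches 1 and 2 alone, where none was run. Among batches, Sat1 passed in total RNA without KO1 (adjusted p = 0.0432 in edgeR). In the ratio among batches, Srm passed in DESeq2 (0.0486), with the culture block (0.0213) and without WT5 (0.0469), and Sms with no filter (0.0494), with the culture block (0.00265), without KO3 (0.0439) and without WT2 (0.0485). Leaving out 1 culture took the adjusted p of the same edgeR test as high as 0.347 for Srm and 0.269 for Sms. Footprint depth limits batch 3 most: 1 count in WT6 is worth 26.8 CPM.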
